A study of Mus musculus with 108 samples.

Results

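Replication-dependent histone genes were taken as every gene of the count files whose symbol starts with Hist1h, Hist2h, Hist3h or Hist4h. This gave 70 of 55573 gene IDs: 6 H1 genes, 20 H2A genes, 19 H2B genes, 12 H3 genes and 13 H4 genes. By symbol 56 of them belong to the Hist1 cluster, 10 to the Hist2 cluster and 3 to the Hist3 cluster. In GENCODE M21 (GRCm38, the mm10 assembly) these lie on chr13, chr3 and chr11. The Hist1 pseudogene Hist1h2al, at chr13:51202727-51203065, lies far from the other Hist1 genes. The remaining gene, Hist4h4, is on chr6. 

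The genes were counted in 86 single mouse oocytes from 23 females, in which Exosc10, the gene of a nuclear exoribonuclease of the RNA exosome, was either intact (control) or deleted only in the oocyte (cKO). Oocytes were taken at the germinal vesicle stage (GV, arrested in meiotic prophase), after 3 h of culture (GV3h) or as ovulated MII eggs from the oviduct. GV and GV3h oocytes were kept ex vivo in M2 medium. PolyA libraries were captured with oligo(dT) beads, reverse transcribed and amplified before tagging. They came from 7 control oocytes (2 females) and 15 cKO oocytes (2 females) at GV, 8 control (3 females) and 11 cKO oocytes (3 females) at GV3h, and 8 control (3 females) and 15 cKO eggs (3 females) at MII. RiboMinus libraries, named for the depletion of ribosomal RNA, were made with the Ovation Solo system and random hexamer primers. They came from 8 control oocytes (2 females) and 7 cKO oocytes (2 females) at GV, and from 3 control eggs (1 female) and 4 cKO eggs (2 females) at MII. The Cre driver, the strain and the ages of the females are not given in the sources used here. No oocyte was measured with both kits, so kit, female and oocyte cannot be told apart between polyA and RiboMinus values.

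Replication-dependent histone genes supply the histones that package new DNA in S phase. Most of their mRNAs carry no poly(A) tail in dividing cells. Their 3′ ends are cut downstream of a short conserved stem-loop that is bound by the stem-loop binding protein SLBP, with the U7 snRNP and the CPSF73 endonuclease (gene Cpsf3) making the cut. A minority of members can also be made as polyadenylated mRNAs. Growing oocytes make and store histone mRNA and protein for the first cleavages of the embryo, although the fully grown oocyte does not replicate DNA. Oligo(dT) capture needs a poly(A) tail and random priming does not, so a comparison of the kits asks how much of each histone mRNA each kind of library contains.

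The stem-loop that distinguishes these mRNAs was looked up in the annotated transcripts, within the first 150 bases after the stop codon, because members with and without it are compared further on. The motif searched was GGNNNNTTNNNNNNCC on the transcript strand, with the first 6 bases able to pair with the last 6 (G-T pairs allowed). It was found in 44 of the 52 members that have at least 30 annotated bases after the stop codon, and in 23 of 20943 other genes (0.11%). The stem-loop started 21 to 58 bases after the stop codon. There were 6 distinct stem-loops, and 26 members carried the same one, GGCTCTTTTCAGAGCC. The following sites belong to the members on which most results turn, written 5′ to 3′ as DNA, with the stem-loop in capitals and 4 flanking bases on each side.
Hist1h1e: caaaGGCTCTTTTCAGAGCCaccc
Hist1h1c: aaaaGGCTCTTTTCAGAGCCacca
Hist3h2a: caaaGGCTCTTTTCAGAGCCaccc
Hist3h2ba: caaaGGCTCTTTTCAGAGCCacct
Hist1h3a: caaaGGCTCTTTTCAGAGCCacac
Hist1h3f: aaacGGCTCTTTTAAGAGCCacct
Hist1h4d: caaaGGCCCTTTTCAGGGCCacta
Hist1h4i: taaaGGCCCTTTTTAGGGCCacca
Hist4h4: caaaGGCCCTTTTCAGGGCCcaca
In these examples the H1, H2A, H2B and H3 genes share a GGCTC stem and the H4 genes a GGCCC stem. In GRCm38 the capitals lie at chr13:23621782-23621797 on the minus strand for Hist1h1e, at chr13:23739512-23739527 on the plus strand for Hist1h1c and at chr11:58955172-58955187 on the plus strand for Hist3h2a. Those of Hist3h2ba are at chr11:58949349-58949364 (plus strand), of Hist1h3a at chr13:23761890-23761905 (minus), of Hist1h3f at chr13:23544932-23544947 (plus), of Hist1h4d at chr13:23581950-23581965 (plus), of Hist1h4i at chr13:22040966-22040981 (minus) and of Hist4h4 at chr6:136803998-136804013 (minus). All of these sites are in annotated 3′ untranslated sequence. No such stem-loop was found in the 48 annotated bases after the stop codon of Hist1h1a or in the first 150 of the 742 bases after that of Hist1h2bc. For Hist1h2bc only a spliced transcript is annotated, so an unspliced form was not searched. Hist1h2aa and Hist1h2ba have 0 bases annotated after the stop codon, so the search could not be made there. A missing match says only that these letters are absent from the annotated window.

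Levels are given in CPM, the count scaled to the library total, with TMM factors per oocyte within each kind of library. Assigned counts per oocyte were 4638718 to 8735914 in polyA and 12319658 to 62675760 in RiboMinus libraries, of which 391 to 3425 and 18015 to 227183 fell on the 70 histone genes. RNA per oocyte could not be measured, so a CPM is a share of the counted RNA. Exosc10 was low in every cKO group (group means 0.527 to 3.54 CPM) and high in every control group (48.0 to 133 CPM), and cKO and control oocytes did not overlap in any of the 5 comparisons. The 9 oocyte marker genes were above 0 in every group and their summed level was 6800 to 30100 CPM per oocyte. The 11 granulosa and cumulus markers summed to 67.7 to 198 CPM, with 1 to 4 of them at 0 in a group. The 3 blood markers stayed at or below 1.13 CPM except in RiboMinus cKO eggs, where they reached 13.8 CPM in 1 egg; their part in the results was not tested. Tests were edgeR quasi-likelihood tests on counts summed per female, with Benjamini-Hochberg adjustment over all genes tested, and a gene was called at an adjusted p under 0.05. The p-values measure the spread between these females. RiboMinus MII controls were 1 female, which the fit assumes to vary like the other groups, and there genotype and the single female cannot be told apart. Scaling by library totals instead shifted the median log2 fold change of all genes by -0.54 (between the kits, cKO eggs) to 0.22 (cKO against control, GV3h). No called member changed sign under this scaling or under DESeq2 size factors.

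Of the 70 genes, 67 are annotated as protein coding and 3 as pseudogenes. Hist1h2aj, Hist1h2ao, Hist1h2ap, Hist1h2bq and Hist1h2br had no count in any of the 86 libraries. All 5 share at least 88.7% of their 50-base words with another gene, and the deposited counting left no separate line of multiply mapped reads above 0. In all, 36 members share 50% or more of their 50-base words with other genes, so their counts are uncertain. Only Hist1h1a, Hist1h1b, Hist1h1t and Hist2h2be share none. Hist3h2a overlaps exons of Trim17 on the same strand, and over the 86 libraries it had 37553 counts against 36554 for Trim17. These counts were within 10% of each other in 40 of the 84 libraries with Hist3h2a counts and identical in 11 libraries. Whether reads of the pair were counted for both is not given in the sources used here, so the value of Trim17 is given beside that of Hist3h2a between genotypes. Hist1h1e overlaps Hist1h2be on the same strand, with 77551 against 2117 counts over the 86 libraries. In polyA GV controls both genes were at like levels. Female means (V856 and V889) were 0.453 and 1.15 CPM for Hist1h1e and 0.521 and 1.19 CPM for Hist1h2be. The part of shared reads in the low control values of Hist1h1e was not tested. After a filter on low counts, 32 members entered the polyA fit (19242 genes), 62 the RiboMinus fit (25425 genes) and 59 the fit over both kits (24777 genes). Members that passed only because 1 group was high are among them, so counts of called members are read against the share of all genes called and not as a test of the list.

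Histone mRNA took up a far larger share of RiboMinus than of polyA libraries. In control GV oocytes the 70 genes summed to a median of 202.3 CPM in the 7 polyA libraries (169.9 to 228.6) and to 2059 CPM in the 8 RiboMinus libraries (1332 to 2550). In control eggs the median was 74.9 CPM over 8 polyA libraries (59.1 to 100.4), while the 3 RiboMinus libraries held 2672, 3123 and 3192 CPM. RiboMinus means were 9.83 times the polyA means at GV and 38.8 times at MII, and no oocyte of one kit reached the range of the other. The oocyte markers were higher in polyA than in RiboMinus libraries in each of the 4 pairs of groups, also without overlap. The granulosa and cumulus markers were lower in polyA (81.1 to 102.0 CPM) than in RiboMinus (103.7 to 149.3 CPM) control GV oocytes, without overlap. In the other pairs of groups they overlapped. The part of either marker list in the result was not tested. In cKO oocytes at GV the polyA median was 324 CPM (165.8 to 420.3) and the RiboMinus median 2747 CPM (1322 to 3733). In cKO eggs these values were 146.8 CPM (101.5 to 210.7) and 3235 CPM (2487 to 3994). Here the RiboMinus means were 9.21 times (GV) and 20.4 times (MII) the polyA means, again with no overlap. At GV3h, measured in polyA only, the median was 191.3 CPM in controls (137.8 to 322.5) and 230.8 CPM in cKO (210.9 to 344).

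The gap between the kits differed in size by histone type. H1 genes encode linker histones and summed in control GV oocytes to 8.66 to 23.3 CPM in polyA and 614 to 1307 CPM in RiboMinus, a mean ratio of 56.5. H3 genes, of the core histone H3, summed to 5.80 to 10.5 CPM and 243 to 521 CPM, a ratio of 48.6. H4 genes summed to 11.1 to 18.1 CPM and 196 to 371 CPM, a ratio of 19.5. H2A genes summed to 22.8 to 28.7 CPM and 120 to 180 CPM, a ratio of 5.63. H2B genes had the smallest ratio, 1.6, with 102 to 158 CPM in polyA and 158 to 298 CPM in RiboMinus. H2B was also the type whose oocytes overlapped at GV, where 7 of 8 RiboMinus control oocytes and 5 of 7 RiboMinus cKO oocytes lay above the highest polyA oocyte. The same order of types, H3 and H1 above H4, then H2A, then H2B, was present in control MII eggs, with mean ratios of 118 (H3), 92.1 (H1), 43.4 (H4), 8.09 (H2A) and 5.85 (H2B). In cKO GV oocytes the ratios were 27.9 (H3), 25.7 (H1), 11.8 (H4), 4.36 (H2A) and 1.79 (H2B). In cKO eggs they were 77.3 (H3), 55.2 (H1), 26.5 (H4), 8.7 (H2A) and 2.81 (H2B). The order of the ratios was not tested, and it rests on single genes. With Hist1h2bc left out, a choice made after seeing the data, the other H2B genes summed in control GV oocytes to 19.6 to 31.9 CPM in polyA and 132 to 263.8 CPM in RiboMinus, without overlap. Their ratios were 7.38 and 18.6 in control GV oocytes and eggs and 3.67 and 14.9 in cKO, so they lay below those of H2A genes only in cKO GV oocytes. With Hist1h3f left out in the same way, the H3 ratios in the same order were 10.9, 7.99, 19.7 and 14.5, below those of H4 genes except in cKO GV oocytes. With Hist1h1a left out, the H1 ratios were 14.6, 46.4, 11.4 and 32.5, below those of H4 genes at GV and above them in eggs.

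**Figure D1:**
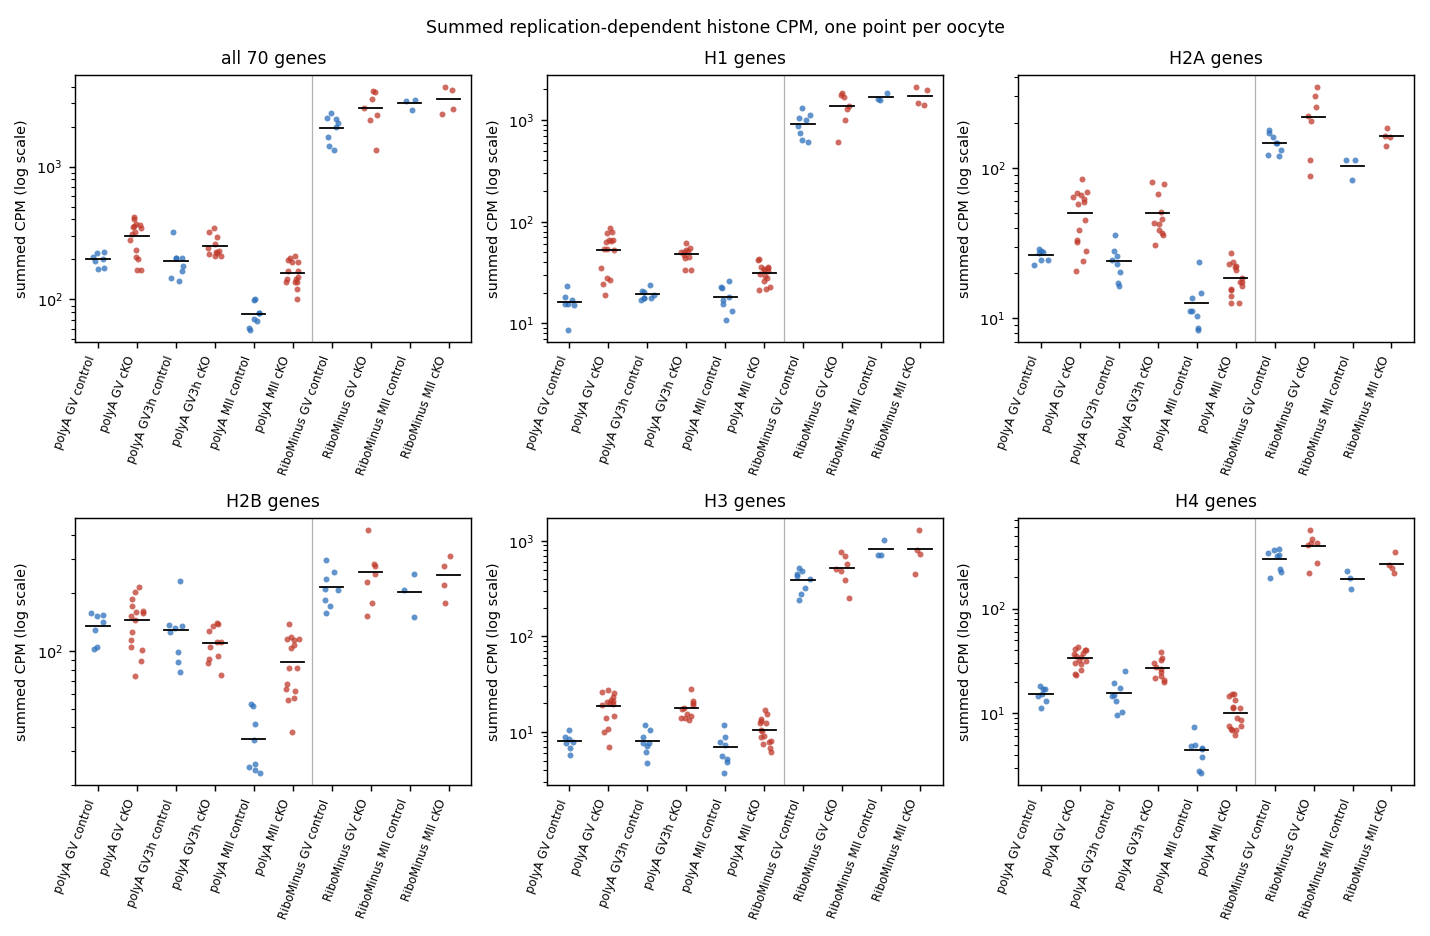
Summed CPM of all 70 genes and of each histone type (log axis) in the 10 groups, with 1 point per oocyte, control in blue, cKO in red, and a bar at the group mean. RiboMinus oocytes lie above polyA oocytes of the same stage and genotype in every panel except H2B, where the GV oocytes overlap.

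Few genes carried most of the sum. In polyA libraries Hist1h2bc, an H2B gene, held 54.9% of the members' CPM in control GV oocytes, 53.0% in control GV3h oocytes and 35.3% in control eggs. In RiboMinus libraries Hist1h1a, which encodes the linker histone H1.1, held 43.6% in control GV oocytes and 53.5% in control eggs. In cKO oocytes the share of Hist1h2bc in polyA was 27.6% at GV, 20.1% at GV3h and 45.7% at MII, and that of Hist1h1a in RiboMinus was 37.8% at GV and 39.6% at MII. Divided by exonic length, the leading levels in polyA control GV oocytes were 95.0 CPM per kb for Hist1h2bc, 34.2 for Hist1h2aa, 22.8 for Hist3h2ba and 16.3 for Hist1h1a. In RiboMinus control GV oocytes they were 1155 CPM per kb for Hist1h1a, 294 for Hist1h2ba, 267.9 for Hist1h3f and 207 for Hist1h2aa. Hist1h2aa and Hist1h2ba encode TH2A and TH2B, variants known from testis and oocyte. In control eggs the leading levels were 29.1 CPM per kb for Hist1h2aa, 23.5 for Hist1h2bc and 22.3 for Hist1h1a in polyA, and 2161 for Hist1h1a and 615 for Hist1h3f in RiboMinus. The number of members with a mean of at least 1 CPM was 18 in polyA and 31 in RiboMinus control GV oocytes, and 9 and 31 in control eggs. In cKO it was 25 and 42 at GV, and 16 and 42 at MII.

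**Figure D2:**
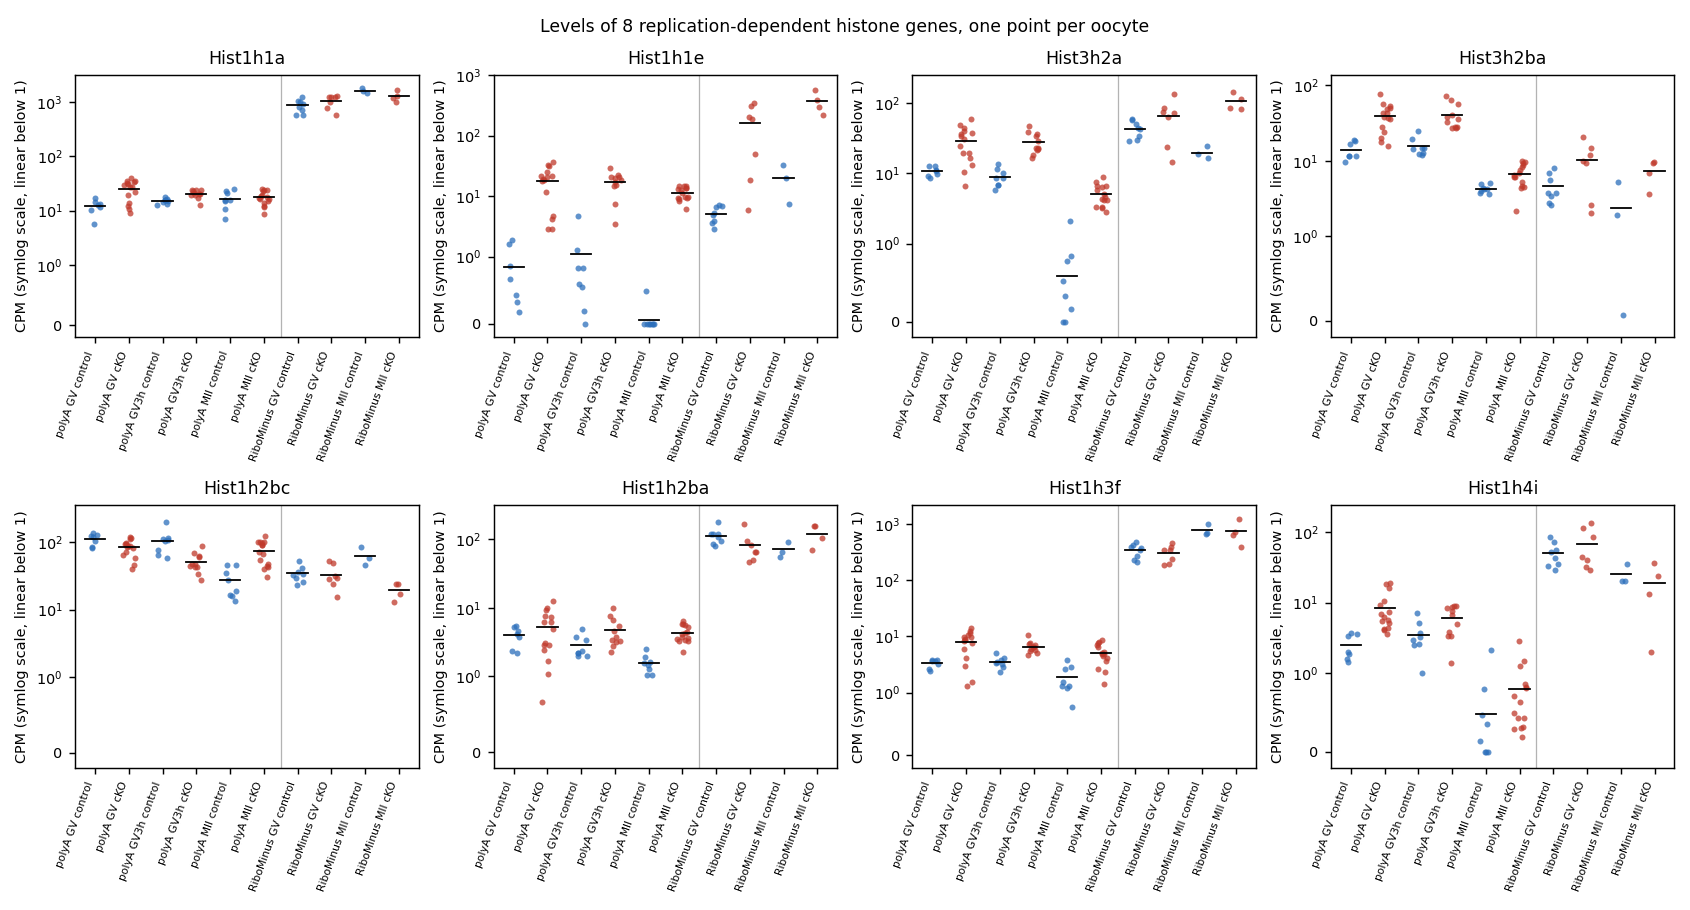
CPM of 8 members (axis logarithmic above 1 and linear below) in the 10 groups, with 1 point per oocyte, control in blue and cKO in red, and a bar at the group mean. Hist1h1a and Hist1h3f are far higher in RiboMinus than in polyA libraries, Hist1h2bc is not, and Hist1h1e is higher in cKO than in control oocytes in each stage and kit.

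Tested gene by gene, members called lower in polyA than in RiboMinus libraries far outnumbered those called higher. Between control GV oocytes 29 of 59 tested members were called lower and 2 higher, against 8.67% and 8.71% of all genes tested. Between cKO GV oocytes 33 were lower and 2 higher (9.52% and 7.94% of all genes). Between control eggs 33 were lower and 0 higher (18.9% and 13.8%), and between cKO eggs 44 were lower and 1 higher (19.2% and 17.1%). The median log2 fold change of the tested members was -3.47, -3.45, -4.27 and -4.67 in these 4 comparisons, against 0.00, 0.03, 0.00 and -0.27 over all genes. With members that had no polyA count set to the bound that 3 counts over the group allow, the medians were -2.69 for control GV oocytes, -3.39 for control eggs and -4.47 for cKO eggs. In all, 25 members were lower in each of the 4 comparisons and 45 in at least 1, against 3.07% and 32.2% of the 24777 genes tested.

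By type, the calls were spread over all 5 kinds of histone. In control GV oocytes 4 of 6 H1, 5 of 15 H2A, 4 of 16 H2B, 8 of 11 H3 and 8 of 11 H4 genes tested were lower in polyA. In control eggs the numbers were 4 of 6 H1, 10 of 15 H2A, 5 of 16 H2B, 6 of 11 H3 and 8 of 11 H4. In cKO GV oocytes they were 4, 9, 5, 7 and 8, and in cKO eggs 6, 11, 9, 8 and 10. All calls in the other direction were H2B genes.

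Hist1h1a had 5.77 to 16.8 CPM in polyA and 582 to 1230 CPM in RiboMinus control GV oocytes. The ranges lie far apart, with a log2 fold change of -6.12 (edgeR adjusted p = 5.888e-09), and the value was -6.24 in control eggs (1.493e-10). Hist1h3f, the H3 gene with the highest mean CPM in both kits, had 2.39 to 3.87 CPM in polyA and 207 to 473 CPM in RiboMinus control GV oocytes. Its log2 fold change was -6.62 (8.786e-09) there and -8.34 (4.643e-11) in control eggs, where polyA libraries held 0.776 to 3.85 CPM and the 3 RiboMinus libraries 650 to 990.5 CPM. Hist4h4 encodes H4 and lies apart from the clusters, and it had 1.37 to 5.00 against 88.7 to 153.5 CPM in control GV oocytes (log2 fold change -5.6). For Hist1h2ba the levels were 2.22 to 5.46 against 80.5 to 177 CPM (-4.8), and for Hist1h2aa 9.09 to 17.2 against 63.8 to 124 CPM (-2.56). Hist1h2aa was thus among the members with a smaller difference, and the groups still did not overlap. Hist1h3a had 0.289 to 1.17 against 24.5 to 38.6 CPM (-5.38), and Hist1h4a 1.44 to 4.18 against 49.99 to 124 CPM (-5.14). In cKO GV oocytes the log2 fold change was -5.62 for Hist1h1a, -5.6 for Hist1h3f, -4.58 for Hist4h4 and -5.7 for Hist1h3a.

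A pair of H2B genes went the other way at GV. Hist1h2bc had 82.5 to 132.9 CPM in polyA and 23.2 to 53.0 CPM in RiboMinus control GV oocytes, with no overlap. Its log2 fold change was 1.71 (edgeR adjusted p = 0.002203) there, 1.25 (0.01949) in cKO GV oocytes and 1.94 (0.0001816) in cKO eggs, but -1.04 (0.05091, not called) in control eggs. Hist3h2ba, an H2B gene of the Hist3 cluster, had 9.68 to 18.8 CPM in polyA and 2.64 to 8.16 CPM in RiboMinus control GV oocytes. Its log2 fold change was 1.62 (0.01491) in control and 1.86 (0.005326) in cKO GV oocytes, and 1.15 (0.1256) and -0.21 (0.7147) in eggs. Leaving out 1 female removed some of these calls at GV. The call of Hist1h2bc in controls was lost without V1132 (1.45, adjusted p 0.05897) and in cKO without V1126 (0.9, 0.2224) or V888 (0.91, 0.1962). The call of Hist3h2ba in controls was lost without V1132 (1.46), V1133 (1.78) or V889 (1.28), and in cKO without V1126 (1.33) or V888 (1.54). Without V889, 19 members were lower or higher in control GV oocytes in place of 31.

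No stem-loop was found in the first 150 bases after the stop codon of Hist1h2bc, whereas Hist3h2ba has one, and both were higher in polyA at GV. The 1 annotated transcript of Hist1h2bc has more than 1 exon, and sequence outside its exons was not searched. Over all members with a stem-loop found, 21 of 40 tested were lower in polyA in control GV oocytes, 22 in cKO GV oocytes, 23 in control eggs and 32 in cKO eggs. Of the 6 tested members with at least 30 annotated bases and no stem-loop found, 4 were lower in each of the 4 comparisons. Hist1h1a and Hist1h4a are among these 6. The stem-loop is 16 bases long and started 21 to 58 bases after the stop codon where found. Hist2h3b and Hist1h1a have 37 and 48 annotated bases there, so a stem-loop beyond the annotated end would be missed. The median log2 fold change in control GV oocytes was -3.32 with a stem-loop found and -4.34 without, and in control eggs -4.58 and -3.52. Among 13 tested members with under 30 annotated bases after the stop codon, 4, 7, 6 and 8 were lower in the 4 comparisons. The difference between these classes was not tested.

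**Figure D3:**
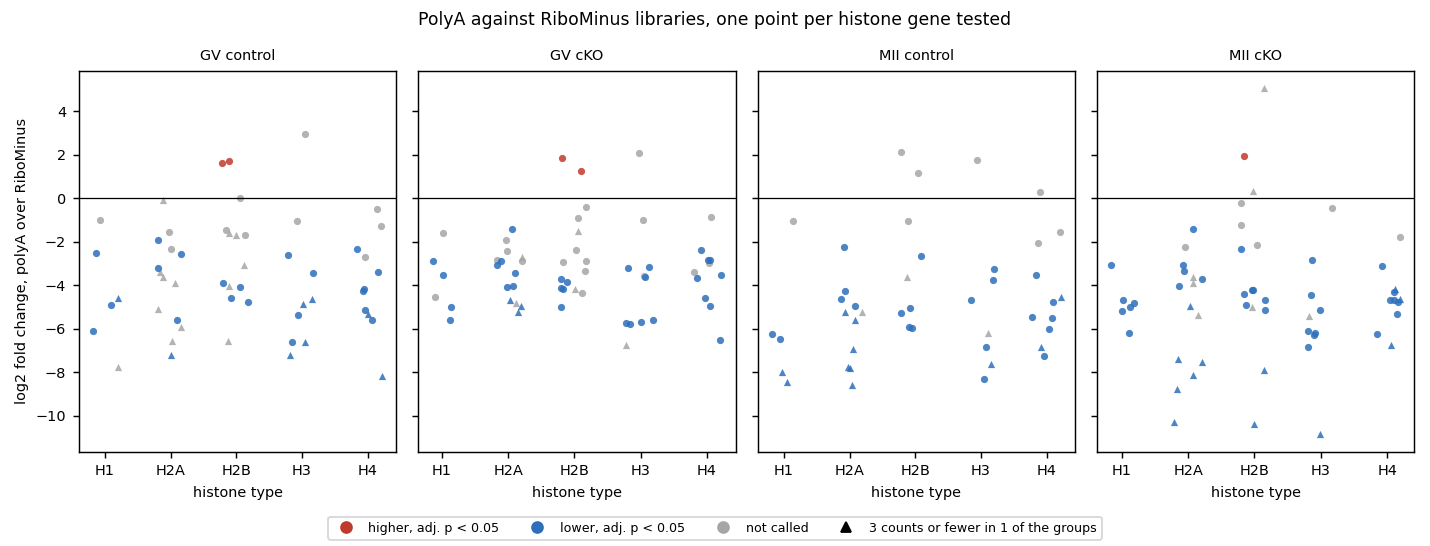
Log2 fold change of polyA over RiboMinus for each tested histone gene by type in the 4 matched comparisons, with calls at an adjusted p under 0.05 in blue (lower) or red (higher) and others in grey. Genes with 3 counts or fewer in both groups are not drawn and triangles mark 3 counts or fewer in 1 group; most calls lie below 0 and the few above 0 are H2B genes.

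Between cKO and control oocytes single histone genes differed, and Hist1h1e was called higher in cKO in all 5 comparisons. Hist1h1e encodes the linker histone H1.4. In polyA GV oocytes it had 2.91, 19.2 and 37.1 CPM (lowest, median and highest) in cKO and 0.171, 0.666 and 1.88 CPM in controls. All 15 cKO oocytes lay above every control oocyte, and the log2 fold change was 4.09 (SE 0.78, edgeR adjusted p = 0.008077). The cKO females differed, with means of 5.27 CPM in V857 and 24.5 CPM in V888. At GV3h the levels were 3.41, 18.3 and 28.6 CPM in cKO and 0, 0.709 and 4.66 CPM in controls, with 10 of 11 cKO oocytes above the highest control (3.91, SE 0.64, adjusted p 0.0005416). In polyA eggs cKO levels were 6.23, 11.2 and 14.8 CPM, while 7 of 8 control eggs had no count and 1 had 0.484 CPM. With 1117 against 3 counts, the ratio of summed counts was 185, with a 95% exact counting interval of 63.3 to 900.0 (adjusted p 8.017e-05). In RiboMinus GV oocytes Hist1h1e had 5.93, 189.7 and 344 CPM in cKO and 2.81, 5.06 and 7.05 CPM in controls. Of the 7 cKO oocytes 6 lay above the controls, and the log2 fold change was 5.04 (SE 0.35, adjusted p 0.001859). In RiboMinus eggs the 4 cKO values were 382, 564, 299 and 215 CPM and the 3 control values 7.47, 32.2 and 20.03 CPM (4.05, SE 0.45, adjusted p 0.01268). Without V888 the polyA GV log2 fold change was 2.63, still called. The polyA GV call was lost without V856 (3.6, adjusted p 0.07447) or V889 (4.91, 0.06643), and the RiboMinus GV call without V1132 (4.9, 0.05409); the calls at GV3h and in polyA eggs held without each female in turn, and that in RiboMinus eggs without each but the single control female, V1145, which cannot be left out.

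At GV in polyA libraries 3 members were higher in cKO and 0 lower of 32 tested, against 3.47% and 3.91% of all genes. DESeq2 called 5. The other 2 were Hist1h4d and Hist3h2ba. Hist1h4d, an H4 gene, is outside the rule for named genes because of its low mean, and was chosen after its values were seen. It had 0.971, 4.05 and 6.88 CPM in cKO and 0, 0.161 and 0.591 CPM in controls, with no overlap (log2 fold change 3.95, SE 0.97, edgeR adjusted p = 0.0248). Hist3h2ba had 15.9, 38.2 and 76.8 CPM in cKO and 9.68, 11.7 and 18.8 CPM in controls (1.37, SE 0.37, 0.03602), and 13 of 15 cKO oocytes lay above the controls. Hist1h4i, the H4 gene with the highest polyA mean, had a log2 fold change of 1.79 and was not called (0.06043). No member was called without V856 or without V889. The call of Hist1h4d was also lost without V888 (3.15), and that of Hist3h2ba without V857 (1.59), V888 (1.11), V951, V982 or V995 (1.37 each). The tested members had positive fold changes in 31 of 32 cases, with a median of 1.10 against 0.08 over all genes.

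At GV3h, after 3 h of culture, 9 members were higher in cKO and 1 lower of 32 tested, against 12.5% and 12.7% of all genes. Their median log2 fold change was 1.18 against 0.07 over all genes. Hist3h2a, an H2A gene that overlaps Trim17, had 16.6, 23.2 and 46.9 CPM in cKO and 5.84, 8.65 and 13.4 CPM in controls, without overlap (1.58, SE 0.37, edgeR adjusted p = 0.005683). Trim17 had 1.68 in the same comparison. Hist3h2ba had 26.8, 35.9 and 71.4 CPM against 11.9, 14.5 and 24.5 CPM, also without overlap (1.34, SE 0.31, 0.004945). Hist1h1d, which encodes H1.3, had 2.42, 5.99 and 9.87 CPM against 0.543, 1.64 and 3.65 CPM, with 9 of 11 cKO oocytes above the controls (1.71, SE 0.56, 0.03467). Hist1h4d had 1.83 to 8.26 CPM against 0 to 1.236 CPM (3.6, SE 0.79, 0.003746). The H3 genes Hist1h3a (2.67, adjusted p 0.005244) and Hist1h3c (3.66, 0.02952) and the H2A genes Hist1h2ag and Hist2h2ab were also higher. The rule for named genes did not pick these 4 in this comparison, and they were named here after their values were seen. It picked Hist1h3a and Hist1h3c in other comparisons. Hist1h3a had 2.01 to 4.13 CPM in cKO and 0.185 to 0.836 CPM in controls, so all 11 cKO oocytes lay above the 8 controls. Hist1h2ag had 51 against 1 counts (ratio 24.4, counting interval 4.18 to 981; adjusted p 0.03557) and Hist2h2ab 88 against 1 (42.1, 7.36 to 1680.0; 0.01861), and both share most of their sequence with other genes. The 1 member lower in cKO was Hist1h2bc, with 27.2, 46.3 and 86.2 CPM against 57.6, 104.9 and 195.3 CPM (-0.99, SE 0.28, 0.01812), where 7 of 11 cKO oocytes lay below the controls. Without V993 only 5 members were called. The lost calls were those of Hist1h1d (1.44 to 1.97) and Hist1h3c (2.82 to 4.26) without V946, V951, V982, V993 or V995, of Hist1h2ag (3.41 to 4.25) without V856, V946, V951, V993 or V995, of Hist2h2ab without V951 (4.7) or V982 (4.69), while the filter left it untested without V946 or V993, and of Hist1h2bc without V951 (-0.93), V993 or V995 (-0.85 each).

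In polyA eggs 6 members were higher in cKO and 0 lower of 32 tested, against 11.9% and 6.98% of all genes. The median was 0.97 against 0.12 over all genes, or 0.87 with members absent from 1 group at their bound. Besides Hist1h1e, Hist3h2a was higher, with 2.80, 4.64 and 8.76 CPM in cKO and 0, 0.425 and 2.10 CPM in controls, without overlap (3.05, SE 0.44, edgeR adjusted p = 0.000334; Trim17 3.28). Hist1h2bc had 30.2, 70.3 and 122.8 CPM in cKO and 13.3, 23.0 and 46.2 CPM in controls (1.32, SE 0.29, 0.005534), with 11 of 15 cKO eggs above the controls. It was thus higher in cKO eggs and lower in cKO oocytes at GV3h. Hist1h4d had 0.455 to 3.45 CPM against 0 to 0.484 CPM (4.56, SE 0.93, 0.003598). Hist1h2ba had 2.29, 4.11 and 6.38 CPM against 1.04, 1.52 and 2.53 CPM (1.33, SE 0.43, 0.03945), and 14 of 15 cKO eggs lay above the controls. Hist2h2bb, chosen after its values were seen and sharing all of its sequence with another gene, had a log2 fold change of 1.52 (0.04957). The calls of these last 2 were the least stable. That of Hist1h2ba was lost in 10 of 16 fits without 1 female (lowest 1.18, without V836) and with no filter on low counts (1.35, adjusted p 0.102). That of Hist2h2bb was lost in 12 (lowest 1.31, without V853), with no filter (1.55, 0.1594) and with DESeq2 size factors (1.48, 0.05649).

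In RiboMinus GV oocytes Hist1h1e was the 1 member called of 62 tested, where 0.0275% of all genes were higher and 0.00393% lower. The members' median was 1.11 against 0.04 over all genes, and 22 members had an unadjusted edgeR p under 0.05. DESeq2 called 15. Hist1h1c, which encodes H1.2, had 4.64, 46.8 and 76.2 CPM in cKO and 0.252, 2.71 and 5.64 CPM in controls, and was not called (3.68, adjusted p 0.06143). Hist1h4d had 6.93, 48.1 and 67.8 CPM against 0.890, 2.31 and 5.16 CPM (0.0803). Without V1132 no member was called, and without V1126 11 were.

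In RiboMinus eggs 7 members were higher in cKO and 1 lower of 62 tested, against 3.61% and 3.69% of all genes. The median was 1.36, or 1.10 with absent members at their bound, against 0.25 over all genes. In these eggs the 11 granulosa and cumulus markers summed to 68.0 to 106.4 CPM in cKO and 152 to 169 CPM in controls. The 9 oocyte markers summed to 7843 to 10650 CPM in cKO and 11710 to 12770 CPM in controls. Neither pair overlapped, and their part in the results was not tested. The 9 granulosa and cumulus markers tested had a median log2 fold change of 0.17, so most of them were not lower in cKO as their sum was. Hist1h1c had 48.6, 59.8, 44.6 and 27.4 CPM in the 4 cKO eggs and 0.909, 0.597 and 5.40 CPM in the 3 control eggs (4.03, SE 0.66, edgeR adjusted p = 0.01782). Hist3h2a had 140.9, 113.9, 83.4 and 84.2 CPM against 24.3, 18.6 and 16.2 CPM (2.42, SE 0.56, 0.03965; Trim17 2.43). The cKO eggs lay above all control eggs for both. Hist1h1b (H1.5), Hist1h2bb and Hist1h3b had 394, 635 and 903 counts over the cKO eggs and 0 over the control eggs. Set against 3 counts over the control group, they were at least 48.4-fold, 78.0-fold and 111-fold higher (adjusted p 0.02608, 0.03511 and 0.01512). Hist1h3b had 8.76, 3.97, 10.4 and 0 CPM in the 4 cKO eggs, so 1 egg was without it. It shares 60.4% of its 50-base words with other genes, so its counts are uncertain. Hist1h2be had 6.95, 10.6, 1.51 and 1.75 CPM against 0.195, 0 and 0.0519 CPM (5.79, SE 1.47, 0.04926), on 723 against 4 counts. It overlaps Hist1h1e on the same strand, which had far more counts and was also higher in these eggs, and the part of its reads in this value was not tested. Hist1h2bc was lower in cKO, with 23.8, 17.0, 12.9 and 24.1 CPM against 83.3, 46.0 and 58.0 CPM (-1.69, SE 0.41, 0.04485) and no overlap. Hist1h1a had 1646, 1305, 992.5 and 1188 CPM in cKO and 1565, 1476 and 1764 CPM in control eggs (-0.35, 0.4631). Hist1h1b is outside the rule for named genes and was chosen after its values were seen. The calls of Hist1h1e, Hist1h1c and Hist1h3b held without each of the 6 females other than V1145, the single control female, in turn; 3 members were called without V1132 or V1133 and 4 without V1166. The calls of Hist1h1b were lost without V1132 or V1133, and those of Hist3h2a (2.42, 2.45 and 2.05) and Hist1h2bb without V1132, V1133 or V1166. The call of Hist1h2be was lost without V1126, V1131, V1132, V1133 or V1166 (4.25 to 5.82), and that of Hist1h2bc without V1132, V1133, V1166 or V1167 (-1.55 to -1.82). The Hist1h2bc call was also lost with DESeq2 size factors (-1.62, adjusted p 0.05319) and library totals (-1.49, 0.06949), and that of Hist1h2be with DESeq2 size factors (5.86, 0.05025).

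Over the 5 genotype comparisons 17 members were higher in cKO in at least 1 and 3 in at least 3 of them, namely Hist1h1e in 5, Hist1h4d in 3 and Hist3h2a in 3. Of the 25637 genes tested in either kit, 62 of them members, 17.9% were higher in at least 1 and 1.41% in at least 3. The calls were in every histone type. The comparisons at 1 stage use different oocytes and females in the 2 kits, and no comparison shares its controls with another. Of the members with the highest RiboMinus mean CPM of their type, the H2B gene Hist1h2ba was called in polyA eggs, and the H1, H3, H2A and H4 genes were not called in any of the 5. Hist1h1a had log2 fold changes of 0.86, 0.37, -0.29, 0.32 and -0.35 (polyA GV, GV3h, MII, RiboMinus GV, MII) and Hist1h3f of 0.96, 0.88, 1.23, -0.09 and -0.24. Hist1h2aa had 0.15, 0.45, 0.03, 0.46 and -0.8, and Hist4h4 0.73, 0.62, 0.28, -0.34 and -0.43.

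The type sums of cKO and control oocytes overlapped in most comparisons. The ratios of cKO to control means were 1.5, 1.3, 2.06, 1.41 and 1.08 for all members in the same order of comparisons, and of these only the polyA eggs (101.5 to 210.7 CPM in cKO and 59.1 to 100.4 CPM in controls) did not overlap. For H1 genes the ratios were 3.28, 2.48, 1.73, 1.49 and 1.04, with no overlap at GV3h (33.2 to 62.4 CPM against 16.8 to 24.0 CPM). For H4 genes they were 2.2, 1.74, 2.26, 1.34 and 1.38, with no overlap in polyA GV oocytes (23.1 to 42.6 CPM against 11.1 to 18.1 CPM). For H2A genes they were 1.92, 2.09, 1.46, 1.49 and 1.58, with no overlap in RiboMinus eggs (139 to 185.6 CPM against 83.2 to 113 CPM). For H3 genes they were 2.35, 2.2, 1.53, 1.35 and 1.01, with no overlap at GV3h (13.3 to 27.9 CPM against 4.71 to 11.9 CPM). For H2B genes they were 1.07, 0.858, 2.52, 1.2 and 1.21, and all 5 comparisons overlapped. The 3 genes of the Hist3 cluster summed to 2.77, 2.81, 2.42, 1.63 and 5.03 times the control mean, with no overlap at GV3h and in eggs of either kit. In RiboMinus cKO eggs Hist3h2a had 83.4 to 140.9 CPM, and the whole cluster 88.7 to 151.9 CPM. Hist3h2a overlaps Trim17, and the part of Trim17 reads in the Hist3 and H2A sums was not tested. The polyA GV ratios of 3 types rest on 1 of the 2 cKO females: without V888 they were 1.64 for H1, 1.09 for H2A and 1.41 for H3 genes. That of H4 genes was 2.0 without V888, still with no overlap, and that of H2B genes 0.805. For the Hist3 cluster the polyA GV ratio was 1.77 without V888, and the RiboMinus GV ratio 0.82 without V1131. Without V1131 the RiboMinus GV ratio was 0.919 for H2A and 0.902 for H2B genes. In RiboMinus eggs the ratios without V1166 turned below 1, to 0.87 for all members, 0.855 for H1, 0.72 for H3 and 0.98 for H2B genes. The polyA GV ratio for H2B genes was also below 1 without V856 (0.992). These sums are descriptions without a test.

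**Figure D4:**
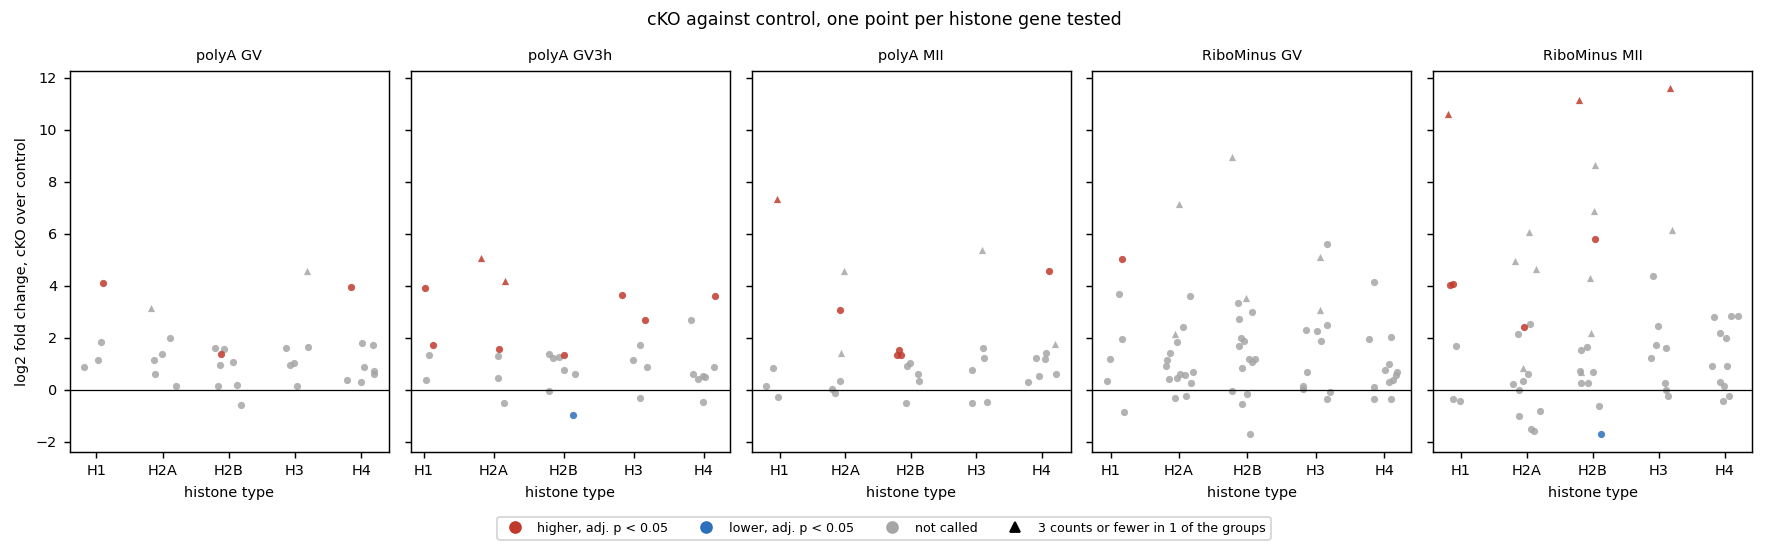
Log2 fold change of cKO over control for each tested histone gene by type in the 5 genotype comparisons, with calls at an adjusted p under 0.05 in red (higher) or blue (lower) and others in grey. Genes with 3 counts or fewer in both groups are not drawn and triangles mark 3 counts or fewer in 1 group; most points lie above 0, and each panel holds at least 1 call, with the fewest in RiboMinus GV oocytes.

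Over 3 h of culture no histone gene passed the test. From GV to GV3h in polyA libraries 0 members were called higher and 0 lower, in controls (0.0% and 0.0% of all genes) and in cKO (0.0% and 0.0%). By edgeR 0 members had an unadjusted p under 0.05, and DESeq2 called 0. The medians were -0.05 and 0.02 (log2).

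From GV to MII every member called in polyA libraries was lower in eggs. In controls 11 of 32 members were called lower and 0 higher (25.7% and 16.8% of all genes), and in cKO 14 lower and 0 higher (26.6% and 18.1%). Over the same comparisons the granulosa and cumulus markers summed in controls to 81.1 to 102.0 CPM at GV and 103 to 173 CPM in eggs. The oocyte markers summed in cKO to 17100 to 22470 CPM at GV and 25150 to 30100 CPM in eggs. Neither pair overlapped, and their part in the results was not tested. The 8 granulosa and cumulus markers tested had a median log2 fold change of -0.87 in controls, so they did not rise as a set with their sum. The medians of the histone members were -1.58 in controls, against -0.26 over all genes, and -1.74 in cKO, against -0.33. Of the called members 8 were shared, which is 72.7% of the control list and 57.1% of the cKO list, against 70.1% and 67.7% over all genes called lower. By type the control calls were 1 of 4 H1, 1 of 6 H2A, 5 of 8 H2B, 1 of 6 H3 and 3 of 8 H4 genes, and the cKO calls 2, 3, 4, 1 and 4. The summed level at GV was 3.4 times (control) and 3.32 times (cKO) that in eggs for H4 genes, without overlap, and 3.86 times in controls (no overlap) and 1.64 times in cKO (with overlap) for H2B genes. For H2A genes it was 2.06 and 2.7 times, for H1 genes 0.89 and 1.69 times and for H3 genes 1.16 and 1.77 times, and these ranges overlapped.

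Among the H4 genes Hist1h4h fell in controls from 2.05 to 4.28 CPM at GV to 0 to 0.873 CPM at MII (log2 fold change -3.43, edgeR adjusted p = 0.0004354). In cKO it fell from 2.86 to 9.41 CPM to 0 to 1.72 CPM (-2.87, 0.0007711). Hist1h4i fell by 2.35 in controls (0.00221) and by 3.6 in cKO (3.773e-05) on the log2 scale. Hist3h2a fell in controls from 8.53 to 12.8 CPM to 0 to 2.10 CPM (-3.97, 4.101e-06), with no overlap. It overlaps Trim17, and the part of Trim17 reads in this fall was not tested. Hist3h2ba fell from 9.68 to 18.8 CPM to 3.65 to 5.07 CPM in controls (-1.6, 0.001294) and from 15.9 to 76.8 CPM to 2.15 to 9.81 CPM in cKO (-2.65, 1.176e-05), without overlap in either. Hist1h2bk, an H2B gene that shares most of its sequence with other genes, fell by 2.76 in cKO (0.0009363). Hist1h1e had 40 counts in control GV oocytes and 3 in control eggs, a ratio of 14.4 with a counting interval of 4.58 to 72.7 (0.008911). Its call was lost without V853 (-2.67) or V889 (-2.71), and that of Hist1h2bk in cKO without V888 (-1.5). Without V889, 6 members were called in controls, and without V888, 8 in cKO. Hist1h1a, by contrast, had 5.77 to 16.8 CPM in control GV oocytes and 7.10 to 25.0 CPM in control eggs, and Hist1h2aa 9.09 to 17.2 and 7.43 to 23.4 CPM; their ranges overlapped.

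In RiboMinus libraries few members were called between the stages. In controls 0 members were called higher and 0 lower of 62, where 0.00787% of all genes were higher and 0.0% lower. By edgeR 9 members had an unadjusted p under 0.05, and DESeq2 called 4. The summed level was nonetheless higher in the 3 control eggs (2672 to 3192 CPM) than in the 8 control GV oocytes (1332 to 2550 CPM), without overlap. The same held for the granulosa and cumulus markers (152 to 169 against 104 to 149 CPM) and the oocyte markers (11710 to 12770 against 6800 to 11430 CPM), and their part in the result was not tested. The 9 granulosa and cumulus markers tested had a median log2 fold change of -0.76, so most of them did not rise with their sum. H1 genes summed to 1569 to 1854 against 614 to 1307 CPM and H3 genes to 706 to 1025 against 243 to 521 CPM, and in each type the difference lay in 1 gene. Without Hist1h1a the other H1 genes summed to 51.0 to 93.0 CPM in eggs and 32.1 to 89.0 CPM at GV, and without Hist1h3f the other H3 genes to 29.4 to 55.5 CPM and 36.1 to 58.5 CPM, with overlap in both. Leaving out these genes was chosen after seeing the data. H2A genes summed to less in these eggs (83.2 to 113 CPM) than at GV (120 to 180 CPM), also without overlap, and H2B genes overlapped (151 to 252 against 158 to 298 CPM). H4 genes summed to 153 to 230 CPM in eggs and 196 to 371 CPM at GV, with overlap. Their GV mean was 1.53 times that in eggs, and 6 of 8 GV oocytes lay above the highest egg. In cKO 1 member was higher and 2 lower (0.61% and 1.71% of all genes), all of them H3 genes. Hist1h3b was higher in eggs (4.02, SE 0.75, edgeR adjusted p = 0.03961), and Hist1h3a (-2.05, SE 0.37, 0.03867) and Hist1h3g (-1.8, SE 0.37, 0.04751) were lower. Hist1h3b and Hist1h3g share 60.4% and 54.1% of their 50-base words with other genes, so their counts are uncertain. The Hist1h3g call was lost with DESeq2 size factors (-1.76, 0.05525) and library totals (-1.79, 0.06123). None of the 3 was called without V1132, V1133 or V1166, nor without V1131, where the values were 5.08, -1.34 and -1.48; 1 member was called without V1145 and 6 without V1126 or V1167. Of the named calls, that of Hist1h3b was also lost without V1126 (3.42, adjusted p 0.06834), that of Hist1h3a without V1167 (-1.93, 0.0563) or V1145 (-2.02, 0.05132) and that of Hist1h3g without V1145 (-1.78, 0.05367).

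**Figure D5:**
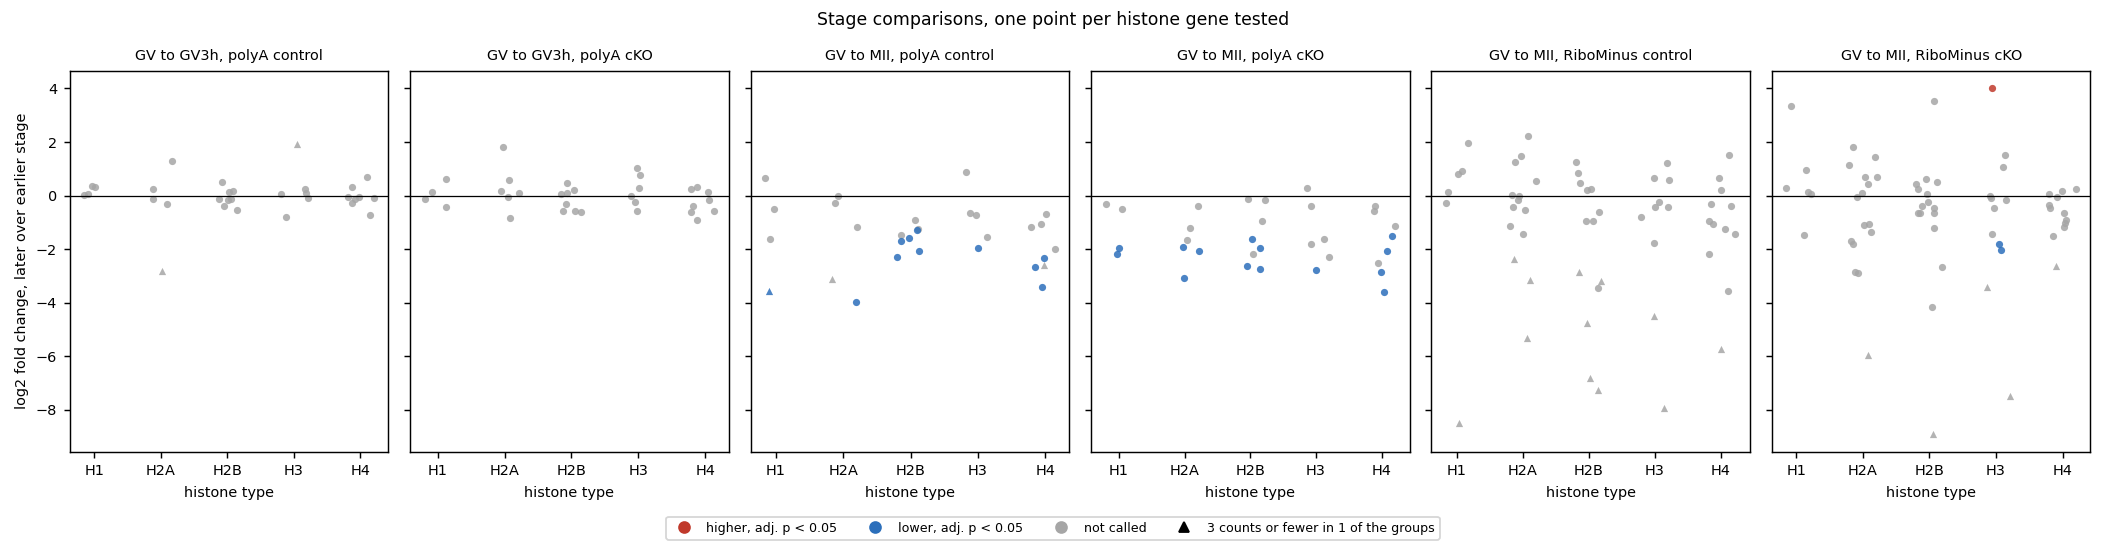
Log2 fold change of the later over the earlier stage for each tested histone gene by type in the 6 stage comparisons, with calls at an adjusted p under 0.05 in red (higher) or blue (lower) and others in grey. Genes with 3 counts or fewer in both groups are not drawn and triangles mark 3 counts or fewer in 1 group; calls lie below 0 in both polyA GV to MII panels, no gene is called over 3 h or in RiboMinus controls, and 3 H3 genes are called in RiboMinus cKO.

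The change from GV to MII differed by genotype for Hist1h2bc. In polyA controls it fell from 82.5 to 132.9 CPM to 13.3 to 46.2 CPM (-2.06, edgeR adjusted p = 6.069e-05), without overlap. In cKO it had 39.1 to 117.8 CPM at GV and 30.2 to 122.8 CPM at MII (-0.17, 0.6945). The difference between the changes was 1.89 (SE 0.45, edgeR adjusted p = 0.04239). It was the 1 member called higher, with 0 lower, in this interaction test, against 1.59% and 0.353% of all genes. The call was lost in 10 of 16 fits without 1 female, with values of 1.62 (without V896) to 2.01 (without V856), and with DESeq2 size factors (1.82, 0.05087).

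The genotype effect differed between the kits for 2 members in eggs and 0 at GV. At GV, 0 members were called higher and 0 lower, against 0.00404% and 0.0% of all genes. By edgeR 1 member had an unadjusted p under 0.05, and DESeq2 called 0. In eggs 1 member was called higher and 1 lower, against 5.78% and 3.65% of all genes. Hist1h2bc was higher in cKO in polyA eggs and lower in cKO in RiboMinus eggs, and the difference was 2.98 (SE 0.52, edgeR adjusted p = 0.001268). Hist1h1c had 0.143 to 3.18 CPM in cKO and 0 to 3.29 CPM in control polyA eggs, whereas it was higher in cKO in RiboMinus eggs (difference -3.94, SE 1.0, 0.01681). Both calls held without each female in turn, except that the single RiboMinus control female cannot be left out.

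The factors that process histone mRNA were described from a list of 13 genes, all tested. In polyA libraries 1 was higher in cKO and 0 lower at GV (3.47% and 3.91% of all genes). At GV3h 1 was higher and 3 lower (12.5% and 12.7%), and in eggs 2 were higher and 2 lower (11.9% and 6.98%). In RiboMinus libraries 0 were called at GV (0.0275% and 0.00393%). In RiboMinus eggs 1 was higher and 0 lower (3.61% and 3.69%). Cstf2, a subunit of the cleavage stimulation factor, was higher in cKO at GV (1.27) and GV3h (1.12). Casp8ap2 (FLASH, which acts with the U7 snRNP) and Upf1 (a helicase of histone mRNA decay) were lower at GV3h (-1.02 and -0.98), and Lsm11 of the U7 snRNP was lower in eggs (-0.98). Cpsf2 was lower at GV3h (-0.68) and in eggs (-0.86), while Cpsf3 was higher in eggs (1.12) and Sympk, which encodes the scaffold symplekin, was higher in polyA (0.96) and RiboMinus eggs (1.13). From GV to MII in polyA libraries 5 rose and 4 fell in controls (16.8% and 25.7% of all genes), and 4 rose and 3 fell in cKO (18.1% and 26.6%). Slbp rose by 1.78 and 2.13, and Lsm10 fell by 3.85 and 3.21, in controls and cKO. These factors are compared only with the shares of all genes given above, and not with the histone genes.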

How the data were processed

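Each sample is 1 oocyte, and the deposited files hold raw whole-number counts of reads per gene (64 polyA and 22 RiboMinus libraries; 22 files of ribosomal RNA were not used). Per the submitters' processing notes, the tools named are cutadapt 2.5, FastQC 0.11.8, STAR 2.7.2a, SAMtools 1.9, HTSeq 0.9.1, R 3.5.1 and DESeq2 1.24.0, with the mm10 build. The strand setting and the handling of reads with several matches are not given in the sources used here. Lines that name no gene were left out: the ambiguous line was 2.07% to 3.19% of reads and the line without a feature 5.86% to 14.2%. Counts were summed per female and tested with edgeR 4.0.16 (R 4.3.3, limma 3.58.1) after filterByExpr and TMM scaling, all groups of a kit in 1 fit and all 10 groups in 1 fit for comparisons of kits, 18 comparisons in all. Counting intervals and bounds cover counting error only. The scripts were tested on simulated data.

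Sequences and coordinates come from GENCODE M21 transcripts. Genes named are Exosc10, the member of each histone type with the highest mean CPM in each kit, and per comparison up to 4 called members with the largest rise and 4 with the largest fall at an average log2 CPM of at least 1; others are said to be chosen after their values were seen. The members and lists were chosen with earlier results of these data known. Alternatives were DESeq2 1.42.0, DESeq2 size factors, library totals, no filter, oocytes as replicates and leaving out each female. No pair of libraries had identical counts. Figures used Python 3.11.15 and matplotlib 3.10.9.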

Additional observations from a re-analysis of the deposited data

Results flagged for a closer look

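Summed and single-gene levels were examined for a single oocyte far from the others, in 90 combinations of a level and a group of 4 to 10 oocytes, and 11 had one. Chance gives about 1 in 20 for independent groups, but sums contain the single genes and combinations share oocytes, so 11 of 90 is not compared with that share. In polyA GV3h controls the second oocyte of V995 had a summed histone level of 323 CPM (others 138 to 207), an H2B sum of 233 CPM (78.2 to 137) and 195 CPM of Hist1h2bc (57.6 to 115). The third oocyte of that female had 4.66 CPM of Hist1h1e (0 to 1.27). In polyA MII controls the fourth egg of V853 had an H2A sum of 23.7 CPM (8.38 to 14.7) with 23.4 CPM of Hist1h2aa (7.43 to 11.7), and the second egg of V853 had 2.15 CPM of Hist1h4i (0 to 0.807). The first egg of V836 had 2.1 CPM of Hist3h2a (0 to 0.842) and 0.484 CPM of Hist1h1e (0 in the others). In RiboMinus GV oocytes Hist1h2ba reached 166 CPM in the second cKO oocyte of V1131 (47.2 to 93.5) and 177 CPM in the third control oocyte of V1133 (80.5 to 120).

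A test of the difference between effects singled out 3 values. Hist1h2bc had a genotype difference of 1.89 in the polyA change from GV to MII and of 2.98 between the kits in eggs. Hist1h1c had a genotype difference of -3.94 between the kits in eggs. The egg values rest on 1 RiboMinus control female.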

How the results depend on the processing

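No paired analysis was possible because the groups compared share no female. Among 64 named calls none was reversed. DESeq2 (64 of 64) and oocytes as replicates (56 of 56) kept all of those they gave a value for, while DESeq2 size factors lost 5 and library totals and no filter 2 each. Over the fits that left out 1 female, calls were kept 950 times and lost 111 times. The causes of these changes were not tested.

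Counts of called members moved by over 1.5 times as follows. DESeq2 gave 5 (cKO against control, polyA GV), 15 (RiboMinus GV), 15 (RiboMinus MII), 4 and 13 (RiboMinus GV to MII, control and cKO) and 7 (genotype by kit, MII). Oocytes as replicates gave 16, 17 and 20 (cKO against control, polyA GV, GV3h and RiboMinus GV), 12 and 9 (RiboMinus GV to MII), 4 (genotype by stage) and 5 (genotype by kit, MII), with p-values that count oocytes of 1 female as independent. Without a filter the counts were 16 (RiboMinus GV), 7 and 15 (RiboMinus GV to MII), 2 (genotype by stage) and 5 (genotype by kit, MII). DESeq2 size factors left 0 (genotype by stage).

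Leaving out 1 female gave 0 to 3 calls (polyA GV), 5 to 10 (GV3h), 4 to 8 (polyA MII), 0 to 11 (RiboMinus GV) and 3 to 11 (RiboMinus MII) between genotypes. From GV to MII it gave 6 to 12 and 8 to 15 in polyA and 0 to 0 and 0 to 6 in RiboMinus (control and cKO). For genotype by stage it gave 0 to 3, for genotype by kit 0 to 0 (GV) and 2 to 4 (MII). Between the kits it gave 19 to 32, 24 to 37, 28 to 35 and 38 to 46 (GV control, GV cKO, MII control, MII cKO).

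With library totals the share of all calls that were higher went from 47.0% to 74.2% (polyA GV), 49.5% to 70.5% (GV3h), 49.5% to 65.9% (RiboMinus MII), 39.5% to 21.4% and 40.5% to 20.04% (polyA GV to MII), 81.8% to 68.9% (genotype by stage), and 45.5% to 58.6%, 42.3% to 27.6% and 47.2% to 27.3% between the kits (GV cKO, MII control, MII cKO). Summed histone levels moved by less than 1 SD in all 10 groups. Low counts limit the precision of weakly detected members: in polyA control eggs 391 to 577 counts per egg fell on the 70 genes.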

Other observations

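Most of the 9 replication-independent histone genes listed have polyadenylated mRNAs, and H2afx is known to have a stem-loop form too. The 9 genes summed to group means of 4261 to 15730 CPM in polyA and 949 to 2440 CPM in RiboMinus libraries. Compared with RiboMinus, polyA libraries had 4 of the 9 genes higher and 1 lower in control GV oocytes, 5 and 0 in cKO GV oocytes, 6 and 2 in control eggs, and 6 and 1 in cKO eggs (edgeR, adjusted p under 0.05). Of all genes tested, 8.71% were higher and 8.67% lower, 7.94% and 9.52%, 13.8% and 18.9%, and 17.1% and 19.2% in the same comparisons. H1foo, the oocyte linker histone, was higher in polyA in all 4 comparisons (log2 fold change 1.2, 1.15, 4.79 and 3.21), as were H3f3a (2.06, 1.94, 0.73 and 3.7) and H3f3b (0.75, 0.88, 2.44 and 2.07), which encode histone H3.3. H2afx was lower in polyA in control GV oocytes (-1.06), control eggs (-1.76) and cKO eggs (-3.02).

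Between genotypes 2, 3, 2, 0 and 1 of the 9 genes were higher in cKO and 0, 0, 1, 0 and 1 lower (polyA GV, GV3h, MII, RiboMinus GV, MII). Of all genes tested, 3.47%, 12.5%, 11.9%, 0.0275% and 3.61% were higher and 3.91%, 12.7%, 6.98%, 0.00393% and 3.69% lower. H2afy, which encodes macroH2A1, was higher in cKO at GV (1.3), GV3h (1.74) and MII (1.79) in polyA libraries. H2afz was higher at GV (2.13) and GV3h (2.82). H3f3a was higher in cKO in polyA eggs (1.37) and lower in RiboMinus eggs (-1.65), and the difference between the kits was 2.97 (SE 0.31, edgeR adjusted p = 1.017e-05).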
